A study of Mus musculus with 16 samples.

Results

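The genes that license replication origins and copy DNA were followed in DN3 and ISP8 thymocytes of mice with and without PKBα. The set holds 44 genes of the replication machinery, chosen by name from what their proteins do, and 43 of them were represented by a probe set annotated to that gene alone, out of 18194 such genes on the array. Chaf1a, the large subunit of chromatin assembly factor 1, was not analysed here. The 43 genes had 92 probe sets, and each gene was read from the probe set with the highest mean log2 value over the 16 arrays.

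DNA replication starts at origins that are prepared in advance. In G1 the origin recognition complex (ORC), together with Cdc6 and Cdt1, loads the MCM2-7 helicase onto DNA, which is called licensing, and geminin (Gmnn) blocks reloading later in the cycle. At S phase the Dbf4-Cdc7 kinase, Mcm10, Cdc45 and the GINS complex turn the helicase on, after which primase, the polymerases, the sliding clamp and the enzymes that join Okazaki fragments copy the strands. Many of these genes are E2F targets, and thymocytes divide rapidly once they have passed the pre-TCR checkpoint that separates DN3 cells from the later ISP8 and double positive stages.

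The 16 arrays came from 4 PKBα-/- mice and their 4 PKBα+/+ littermates, all of a C57Bl/6 backcross, with 1 array of sorted ISP8 cells (immature CD8 single positive cells that precede the double positive stage) and 1 array of sorted DN3 cells (lineage-negative CD25+ CD44- cells) for each mouse. The deletion of PKBα, which is encoded by Akt1, was not confined to thymocytes, and equal cell numbers were sorted within a littermate pair. Pair 1 was female and aged 3 weeks, pair 2 male and aged 3 weeks, pair 3 male and aged 2 weeks, and pair 4 female and aged 5 weeks, so that age, sex and pair cannot be told apart. Values are GC-RMA intensities on a linear scale, which rank samples for 1 probe set. The paper treats comparing different genes on this scale as semi-quantitative, and levels of different probe sets were not tested against each other here. A change was called where limma's adjusted p was under 0.05 over all probe sets tested.

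The levels of Akt1 and of the subset markers followed the labels. Akt1 read 2.01 to 27.2 in the 8 PKBα-/- arrays and 1198 to 2211 in the 8 PKBα+/+ arrays at the probe set 1416657_at. The summed level of 8 DN3 markers was 16373.5 to 24012.0 in ISP8 cells and 43483.5 to 54865.5 in DN3 cells, and that of 3 ISP8 markers (Cd8a, Cd8b1 and Cd4) was 6125 to 9504 in ISP8 cells and 224 to 629 in DN3 cells. Marker lists of other cell types moved too between the subsets. Summed B cell markers read 247 to 473 in ISP8 and 1053 to 1293 in DN3 cells (Ms4a1 called higher and Cd79b lower in ISP8, of 3 tested). Myeloid markers read 218 to 528 in ISP8 and 528 to 1209 in DN3 cells (2 of 5 lower in ISP8), and thymic epithelial markers 149.5 to 300.0 in ISP8 and 413 to 1065 in DN3 cells (Epcam lower in ISP8, of 4 tested). NK cell markers read 79.1 to 323 in ISP8 and 9.77 to 75.4 in DN3 cells (Klrd1 higher in ISP8, of 2), and those of mature T cells 79.8 to 287 in ISP8 and 33.3 to 317 in DN3 cells, with none of 3 called. Erythroid markers, at 9.49 to 101 in ISP8 and 5.01 to 38.8 in DN3 cells, did not pass the filter. None of these markers was called between the genotypes. The log2 gap between the 3′ and 5′ actin probe sets, a sign of RNA length, was 1.85 to 2.90 in ISP8 and 2.50 to 3.11 in DN3 arrays. The part of these in the results was not tested. The ISP8 arrays were numbered 1 to 8 and the DN3 arrays 9 to 16, so that array number and subset cannot be told apart. In sorted bulk samples, more cells in S phase and more transcript per cell cannot be told apart.

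Promoter sequences were set beside the expression values, because E2F-type sites are the best known shared element of these genes. RefSeq windows (GRCm38.p6) that run from 250 bases before to 50 bases after the transcription start were searched on both strands for TTTCCCGC, TTTGGCGC, TTTCGCGC and TTTGCCGC. Of the 44 genes, 36 had a window, and 14 of these (38.9%) held at least 1 match, against 550 of 14453 array genes with a window (3.81%). CCAAT was present in 22 of the 36 (61.1%, against 42% of array genes) and TTTGAA in 7 (19.4%, against 15.7% of array genes). The stretches below lie before the start and are shown because they span large and small estimated changes between the subsets. Each reads 5′ to 3′ on the gene's strand with the matches in capitals, and a run of 12 capitals is 2 matches that overlap.
Cdc6 (chr11:98907993-98908040, plus strand): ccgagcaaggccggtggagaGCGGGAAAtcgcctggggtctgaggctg
Gins3 (chr8:95633498-95633545, plus strand): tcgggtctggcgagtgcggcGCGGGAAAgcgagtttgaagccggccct
Orc1 (chr4:108579407-108579453, plus strand): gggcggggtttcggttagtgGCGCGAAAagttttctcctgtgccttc
Mcm5 (chr8:75109336-75109387, plus strand): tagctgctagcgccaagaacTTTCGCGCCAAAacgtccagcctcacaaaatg
Mcm6 (chr1:128359725-128359835, minus strand): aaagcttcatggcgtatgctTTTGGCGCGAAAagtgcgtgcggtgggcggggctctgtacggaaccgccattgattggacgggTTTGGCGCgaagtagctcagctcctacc
Orc3 (chr4:34614956-34615003, minus strand): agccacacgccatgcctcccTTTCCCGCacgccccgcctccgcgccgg

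The genes named here were picked to span large and small changes, so that their spread says nothing about the matches. Cdc6, with 1 match, was 2.53-fold higher in ISP8 than in DN3 cells, and Gins3, with 1 match, 2.18-fold. Mcm6, with 3 matches, was 1.17-fold higher, and Orc3, with 1 match, stood at 1.05-fold and was not called. The median log2 change was 0.75 in the 14 analysed genes with a match (0.07 to 1.34), 0.66 in the 21 with a window but no match (0.08 to 2.37) and 0.74 in the 8 with no window. The part of the matches in the change was not tested.

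Between the stages the replication genes moved together. All 43 had higher estimates in ISP8 than in DN3 cells over both genotypes, 40 were called higher and none was called lower. Over all genes with 1 probe set each, 20.2% were called higher and 26.7% lower. The median log2 change was 0.72 in the replication genes and -0.03 over all genes tested. In 32 of the 43 genes all 8 ISP8 arrays lay above all 8 DN3 arrays (8.26% of all genes), and 36 were higher in ISP8 cells in 8 of 8 mice (14.8% of all genes). The 3 genes that were not called were Orc3, Orc4 and Orc5. A rise of at least 2-fold was estimated for 11 genes and one of under 1.5-fold for 16. When each array was centred on its median, the median change over all genes moved to 0.12, the called genes shifted to 3914 higher and 2842 lower, in place of 2838 and 3762, and all 43 replication genes were called higher. Relative to the median of all genes, their median change was 0.75. Centring takes 1 value off each array, so it could not alter this figure. Under quantile normalization the figure was 0.61.

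**Figure D1:**
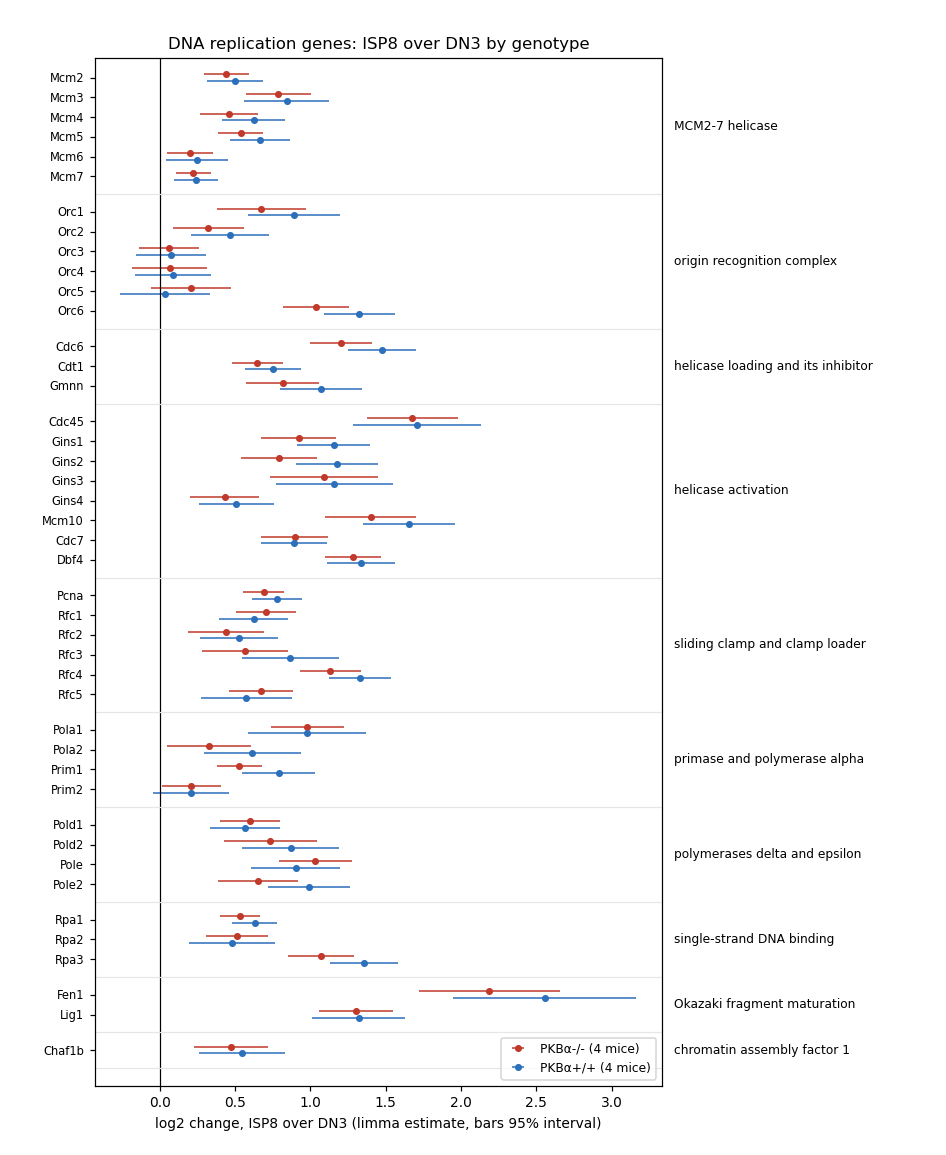
Log2 change between ISP8 and DN3 cells for each of the 43 genes, grouped by role, in PKBα-/- (red) and PKBα+/+ mice (blue); points are limma estimates from 4 mice and bars 95% confidence intervals. Estimates lie right of 0 in both genotypes, furthest for Fen1, Cdc45 and Mcm10 and nearest to 0 for Orc3 and Orc4 in PKBα-/- and for Orc5 in PKBα+/+ mice.

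The 6 subunits of the MCM2-7 helicase, the ring that unwinds DNA, all rose, with a median log2 change of 0.51. Mcm3 (0.82 ± 0.094 SE, adjusted p = 3.42e-06) and Mcm5 (0.60 ± 0.061 SE, adjusted p = 8.63e-07) rose furthest, followed by Mcm4 at 0.54 and Mcm2 at 0.47. Mcm6 (0.22, adjusted p = 0.00987) and Mcm7 rose least. Mcm7 read 24383, 25058, 24123 and 23808 in PKBα-/- ISP8 cells and 24495, 24566, 24465 and 26910.3 in PKBα+/+ ISP8 cells, against 21774, 21126, 19769 and 20680.3 in PKBα-/- DN3 cells and 22680.5, 21100.5, 19822 and 21442 in PKBα+/+ DN3 cells, in pairs 1 to 4. Every ISP8 value exceeded every DN3 value, but the gap was narrow, and the log2 change was 0.23 ± 0.039 (SE, adjusted p = 1.41e-04). The 3 other Mcm7 probe sets rose by 0.48, 0.64 and 0.82.

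ORC, the complex that marks origins, held subunits that rose and subunits that did not pass the test. Orc1, Orc2 and Orc6 were called higher, at 0.78, 0.40 and 1.18, and Orc3, Orc4 and Orc5 were at 0.07, 0.08 and 0.12 with adjusted p of 0.423, 0.471 and 0.329. Orc6, the smallest subunit, read 3726, 4145, 4665 and 4270.4 in PKBα-/- ISP8 cells and 4749, 4419, 4109.8 and 4571 in PKBα+/+ ISP8 cells, against 2211, 2198, 2035 and 1762 in PKBα-/- DN3 cells and 1969, 1844, 1862 and 1478 in PKBα+/+ DN3 cells. The ISP8 and DN3 arrays did not overlap, and the log2 change was 1.18 ± 0.075 (SE, adjusted p = 4.96e-09). Orc5 read 1411, 1136, 1406 and 1315 in PKBα-/- ISP8 cells and 1310.4, 1498, 1405 and 1129 in PKBα+/+ ISP8 cells, against 1173, 1255, 1007 and 1125 in PKBα-/- DN3 cells and 1132, 1549, 1102 and 1451 in PKBα+/+ DN3 cells. Here the subsets overlapped over nearly their whole range, and 5 of 8 mice were higher in ISP8 cells. Orc3 ranged from 1846 to 2219 in ISP8 and from 1763 to 2085 in DN3 cells, and Orc4 from 1422 to 1814 in ISP8 and from 1345 to 1795 in DN3 cells. The 95% intervals of the 3 changes were -0.07 to 0.21, -0.09 to 0.25 and -0.08 to 0.32, so that changes of the size seen in Orc1 or Orc6 lie outside them. Averaged over all its probe sets, Orc3 was at -0.12 and Orc4 at -0.03, neither called, and 1 Orc3 probe set, 1416117_at, fell by 0.54 (adjusted p = 0.00275).

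All 3 genes of helicase loading and its control rose. Cdc6, the ATPase that recruits the helicase to ORC, read 5718, 5737, 6263 and 6308 in PKBα-/- ISP8 cells and 5446, 5979, 7222 and 6275 in PKBα+/+ ISP8 cells, against 2902, 2680.4, 2697 and 2187 in PKBα-/- DN3 cells and 2398, 2035, 2621 and 1925 in PKBα+/+ DN3 cells. Its lowest ISP8 value was well above its highest DN3 value, and the log2 change was 1.34 ± 0.072 (SE, adjusted p = 7.88e-10). Cdt1, its partner in loading, read 17146, 18048, 17719 and 19055 in PKBα-/- ISP8 cells and 18699, 17657, 18773 and 19305 in PKBα+/+ ISP8 cells, against 13326, 11212, 11616 and 9964 in PKBα-/- DN3 cells and 13215, 10221, 11590.5 and 9480.2 in PKBα+/+ DN3 cells. The subsets were again separate, and the log2 change was 0.70 ± 0.063 (SE, adjusted p = 2.44e-07). Gmnn, which encodes the Cdt1 inhibitor geminin, rose by 0.94 ± 0.10 (SE, adjusted p = 1.58e-06), with 11079 to 17144 in ISP8 against 5318 to 9742 in DN3 cells.

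The 8 helicase activation genes all rose, with a median of 1.08 on the log2 scale. Cdc45, a fixed part of the active helicase, read 1774, 1588, 1868 and 2184 in PKBα-/- ISP8 cells and 1945, 1530.3, 1791 and 1939 in PKBα+/+ ISP8 cells, against 633, 615, 588 and 481 in PKBα-/- DN3 cells and 719, 791, 420.5 and 378 in PKBα+/+ DN3 cells. No DN3 array reached the ISP8 range, and the log2 change was 1.69 ± 0.14 (SE, adjusted p = 7.15e-08), with 1.69 at the gene's other probe set. Mcm10, a scaffold at the starting fork, read 2819, 3155, 3717 and 3335 in PKBα-/- ISP8 cells and 2878, 3368, 3679 and 3102 in PKBα+/+ ISP8 cells, against 1447, 1451, 1248 and 864 in PKBα-/- DN3 cells and 1154, 1151, 1262 and 667 in PKBα+/+ DN3 cells. The subsets were separate, the lowest pair in DN3 cells was pair 4 in both genotypes, and the log2 change was 1.53 ± 0.11 (SE, adjusted p = 2.39e-08). Gins1, a subunit of the 4-part GINS complex, read 4722, 5543, 5678 and 5664 in PKBα-/- ISP8 cells and 5975, 5241, 5925 and 5766 in PKBα+/+ ISP8 cells, against 3621, 2697, 2468 and 2708 in PKBα-/- DN3 cells and 3416, 2549, 2314 and 2154 in PKBα+/+ DN3 cells. Pair 1 gave the highest DN3 value in both genotypes, still below every ISP8 value, and the log2 change was 1.04 ± 0.089 (SE, adjusted p = 1.43e-07). Gins2 (0.99) and Gins3 (1.12) rose similarly, and Gins4 by 0.47. The kinase Cdc7 rose by 0.89 and its activating subunit Dbf4 by 1.31, both with 8 of 8 mice higher in ISP8 cells.

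**Figure D2:**
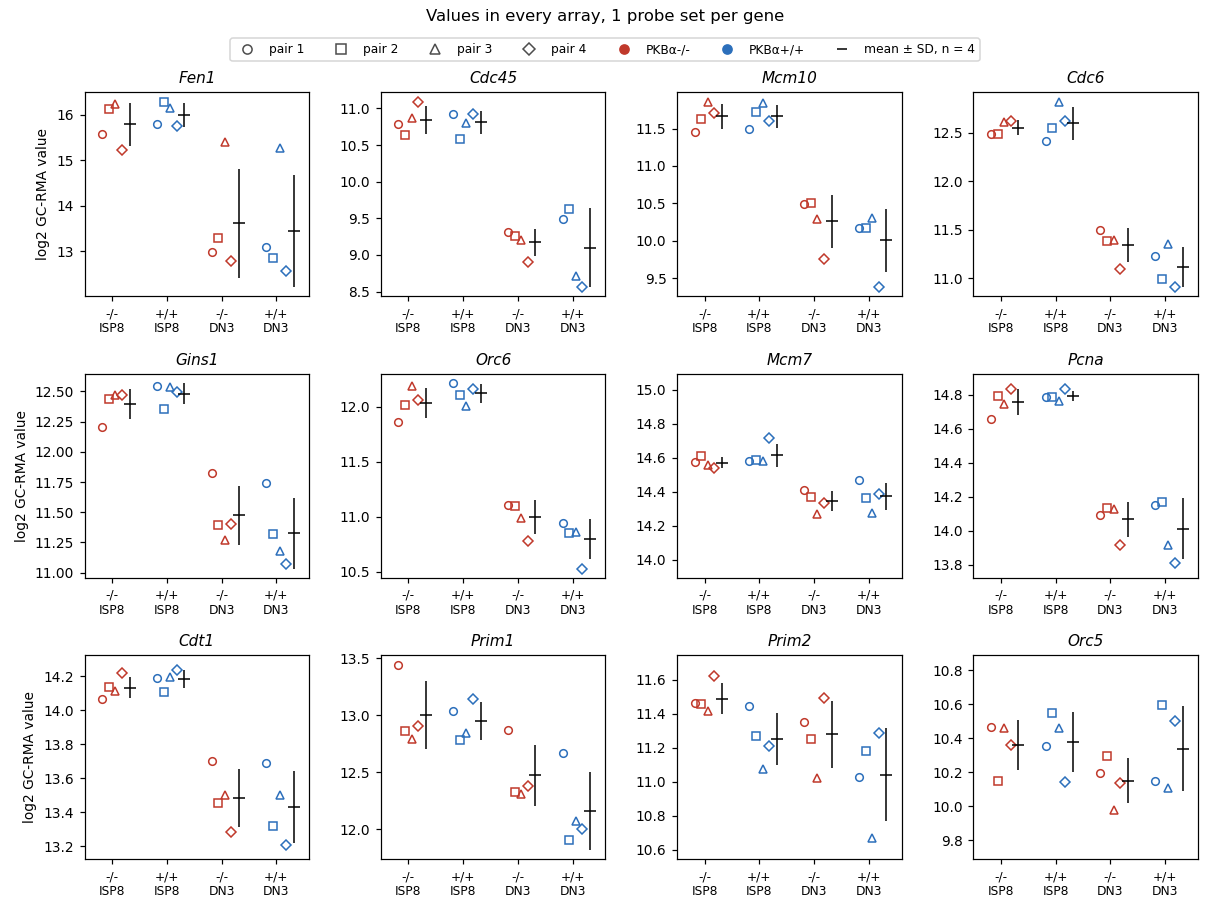
Log2 GC-RMA values of 12 of the genes in every array, in PKBα-/- (red) and PKBα+/+ (blue) ISP8 and DN3 cells, with a symbol for each littermate pair and black marks for the mean ± SD of 4 arrays; each panel has its own axis. Cdc45, Mcm10, Cdc6, Gins1, Orc6, Pcna and Cdt1 separate the subsets, Orc5 does not, and Fen1 shows the pair 3 arrays (triangles) far above the other DN3 arrays in both genotypes.

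The sliding clamp and its loader rose in all 6 genes tested, with a median of 0.69. Pcna, the clamp that holds polymerases on DNA, read 25821, 28341, 27500.4 and 29184 in PKBα-/- ISP8 cells and 28253, 28294, 27772 and 29131 in PKBα+/+ ISP8 cells, against 17469, 17971, 17861 and 15433 in PKBα-/- DN3 cells and 18224, 18448, 15427 and 14377 in PKBα+/+ DN3 cells. The subsets did not overlap and the log2 change was 0.73 ± 0.052 (SE, adjusted p = 1.74e-08). Among the 5 clamp loader subunits, Rfc4 rose by 1.23 ± 0.07 (SE, adjusted p = 1.35e-09) and the others by 0.48 (Rfc2) to 0.72 (Rfc3).

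Primase and polymerase alpha, which lay down the RNA-DNA primers, were called in 4 of 4 genes with a median of 0.57. Prim1, the catalytic primase subunit, read 11152, 7466, 7102 and 7685 in PKBα-/- ISP8 cells and 8388, 7068, 7358 and 9061 in PKBα+/+ ISP8 cells, against 7513, 5138, 5075 and 5348 in PKBα-/- DN3 cells and 6508, 3829, 4314 and 4113 in PKBα+/+ DN3 cells. In DN3 cells pair 1 was highest in both genotypes, and its PKBα-/- value reached into the ISP8 range, while within each of the 8 mice the ISP8 value was higher, and the log2 change was 0.66 ± 0.068 (SE, adjusted p = 1.1e-06). Prim2, the large primase subunit, read 2827, 2814, 2737 and 3150.4 in PKBα-/- ISP8 cells and 2793, 2473, 2161 and 2372 in PKBα+/+ ISP8 cells, against 2615, 2436, 2084 and 2886 in PKBα-/- DN3 cells and 2089.8, 2325, 1627 and 2505 in PKBα+/+ DN3 cells. The subsets overlapped, 7 of 8 mice were higher in ISP8 cells, and the change of 0.21 ± 0.072 (SE, adjusted p = 0.0287) had the largest adjusted p of the 40 called. The polymerase subunits Pola1 and Pola2 rose by 0.98 and 0.47.

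The 4 genes of polymerases delta and epsilon, which extend the lagging and the leading strand, rose with a median of 0.81. Pold1, the catalytic subunit of polymerase delta, read 8739, 8922, 8580.4 and 9154 in PKBα-/- ISP8 cells and 8575, 7729, 9241 and 10493 in PKBα+/+ ISP8 cells, against 4692, 6392, 6989.7 and 5547 in PKBα-/- DN3 cells and 5927, 6809.7, 6017 and 5489.8 in PKBα+/+ DN3 cells. Its subsets were separate, with a log2 change of 0.58 ± 0.078 (SE, adjusted p = 1.59e-05). Pole, the catalytic subunit of polymerase epsilon, read 4791, 4251, 4333 and 5276 in PKBα-/- ISP8 cells and 4292, 3509.9, 4136 and 4891 in PKBα+/+ ISP8 cells, against 3155, 1947, 2144 and 2010.3 in PKBα-/- DN3 cells and 2826, 2472, 1919 and 1857 in PKBα+/+ DN3 cells. All 8 ISP8 arrays were above all 8 DN3 arrays, and the log2 change was 0.97 ± 0.10 (SE, adjusted p = 1.05e-06). Pold2 rose by 0.80 and Pole2 by 0.82.

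Replication protein A, which coats single-stranded DNA, rose in all 3 subunits. Rpa1, the largest, read 21495, 23091, 22614 and 22627 in PKBα-/- ISP8 cells and 24148, 21214, 22854 and 23468 in PKBα+/+ ISP8 cells, against 16761, 16158, 14069.6 and 15211 in PKBα-/- DN3 cells and 16316, 14665, 14003 and 14247 in PKBα+/+ DN3 cells. The gap between the subsets was wide against the spread in each, and the log2 change was 0.58 ± 0.045 (SE, adjusted p = 3.98e-08). Rpa3, the smallest subunit, rose further (1.22) and Rpa2 by 0.50. Chaf1b, a subunit of the factor that deposits histones on new DNA, read 1839.9, 1702, 2086 and 1824 in PKBα-/- ISP8 cells and 2032, 1712, 2309 and 1659 in PKBα+/+ ISP8 cells, against 1595, 1325, 1287 and 1170.2 in PKBα-/- DN3 cells and 1808, 1268, 1331 and 952 in PKBα+/+ DN3 cells. The pair 1 arrays were the highest of DN3 cells and the PKBα+/+ one lay within the ISP8 range, and the log2 change was 0.51 ± 0.089 (SE, adjusted p = 2.04e-04), with 8 of 8 mice higher in ISP8 cells.

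The 2 genes of Okazaki fragment maturation had a median change of 1.84 on the log2 scale, which rests on the Fen1 probe set read. With the other Fen1 probe set it was 1.08, level with helicase activation. Lig1, the ligase that seals the fragments, rose by 1.31 ± 0.11 (SE, adjusted p = 8.39e-08), with 6356 to 8266 in ISP8 against 1864 to 3505 in DN3 cells. Fen1, the nuclease that trims their flaps, read 49279, 72005, 77326 and 38514 in PKBα-/- ISP8 cells and 57068, 80254, 72571 and 55176 in PKBα+/+ ISP8 cells, against 8107, 10065, 43030.5 and 6996 in PKBα-/- DN3 cells and 8743, 7414, 39438 and 6019 in PKBα+/+ DN3 cells. Both pair 3 arrays of DN3 cells stood far above the other DN3 arrays and overlapped the ISP8 range. The log2 change was 2.37 ± 0.23 (SE, adjusted p = 6.42e-07), rank 73 of 14076 genes, and 2.87 without pair 3. Within the mice of pair 3 the change was 0.85 in PKBα-/- and 0.88 in PKBα+/+, against 2.46 to 3.44 in the other 6 mice. The other Fen1 probe set, 1421731_a_at, read 2391, 2488, 2936 and 2541 in PKBα-/- ISP8 cells and 2385, 2138, 2909 and 2643 in PKBα+/+ ISP8 cells, against 1578, 1463, 1663 and 1301 in PKBα-/- DN3 cells and 1483, 1645, 1290.4 and 946 in PKBα+/+ DN3 cells. Pair 3 did not stand apart in DN3 cells there, and the log2 change was 0.86 ± 0.10 (SE, adjusted p = 4.67e-06). The suffix x_at of the brighter probe set marks probes that can also match other transcripts. The probe sets read for Mcm4, Mcm5 and Pold1 carry the same suffix.

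Other probe sets of the same genes gave the same direction in most cases. Of all 32831 probe sets tested between the subsets, 5737 were called higher and 8116 lower. Of the 44 other probe sets of the replication genes, from 30 genes, 35 were called higher and 1 lower, and 40 had a positive estimate. The 4 negative ones belonged to Orc3, Orc4 and Mcm3. The low Mcm3 probe set 1420029_at, at 63.8 to 188 over all arrays, was at -0.52 (adjusted p = 0.0517), whereas the 4 other Mcm3 probe sets rose by 0.82 to 0.87.

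**Figure D3:**
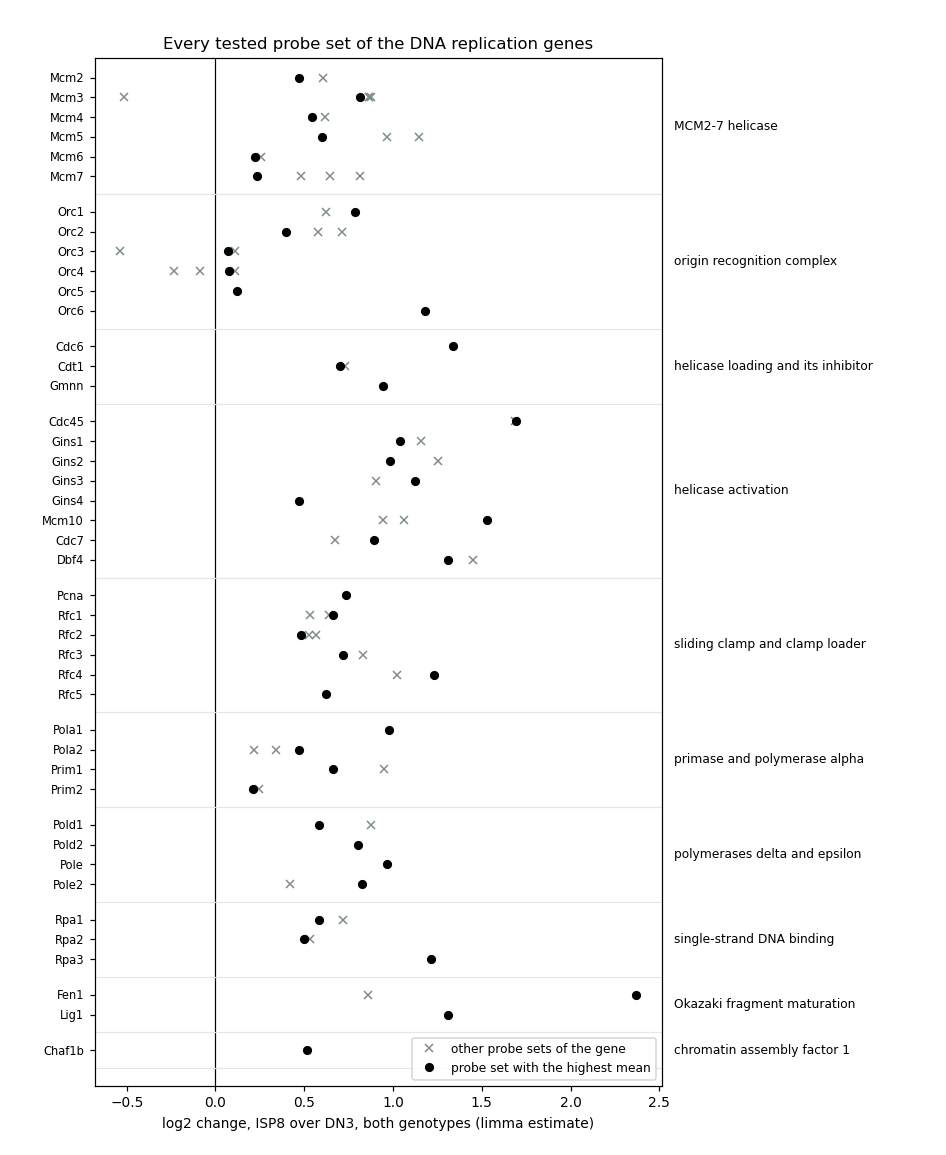
Log2 change between ISP8 and DN3 cells over both genotypes for every tested probe set of the 43 genes; filled circles are the probe set with the highest mean, crosses the others. The crosses lie near the circles for most genes, and Fen1 has the widest gap, 2.37 against 0.86.

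Replication genes outside the set showed the same direction. Of 32 further genes that work at the fork, 28 were called higher and 2 lower in ISP8 than in DN3 cells, with a median log2 change of 0.78, beside 20.2% and 26.7% of all genes. The smallest p among those higher belonged to Top2a, a topoisomerase (1.77 ± 0.078 SE, adjusted p = 9.48e-11), Pclaf, a PCNA-binding factor (1.42 ± 0.074 SE, adjusted p = 5.26e-10), and Dnmt1, the maintenance DNA methyltransferase (0.80 ± 0.052 SE, adjusted p = 6.56e-09). Those lower were Lrwd1, an ORC-associated protein (-0.16 ± 0.056 SE, adjusted p = 0.0316), and Pold4, a small subunit of polymerase delta (-0.43 ± 0.17 SE, adjusted p = 0.0482). The other Lrwd1 probe set spanned much the same range in both subsets, at 2451 to 3123 in ISP8 and 2286 to 3163 in DN3 cells. All 7 genes of fork protection and alternative clamp loaders rose. Of 13 E2F and pocket protein genes, 9 were called higher and 1 lower, with a median of 0.76. E2f5 was read from a probe set at 5533 to 22727 in ISP8 and 598 to 6499 in DN3 cells. Its other probe sets overlapped between the subsets, at 225 to 373 and 110 to 245 in ISP8 and 258 to 370 and 99.3 to 184 in DN3 cells. Those with the smallest p were Rb1, the retinoblastoma protein (1.70 ± 0.07 SE, adjusted p = 4.35e-11), E2f2, an activator (1.92 ± 0.085 SE, adjusted p = 8.87e-11), and E2f8, a repressor that E2F itself induces (2.67 ± 0.13 SE, adjusted p = 2.02e-10). The gene called lower was Tfdp2, an E2F partner (-0.70 ± 0.11 SE, adjusted p = 1.06e-04), at the probe set read. The other Tfdp2 probe sets overlapped between the subsets and differed in direction. They read 64.6 to 244, 142 to 232 and 472 to 879 in ISP8 cells. In DN3 cells they read 167 to 361, 85.4 to 169 and 455 to 654, in the same order.

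The rise from DN3 to ISP8 cells was measured in each genotype. In PKBα-/- mice 37 of 43 genes were called higher and none lower (14.1% and 19% of all genes) with a median log2 change of 0.67, and in PKBα+/+ mice 38 of 43 and none lower (14% and 19.7% of all genes) with a median of 0.79. All of the 37 were among those called in PKBα+/+ mice, where Pola2 was called in addition (0.33 with adjusted p = 0.0764 in PKBα-/- mice and 0.62 with adjusted p = 0.00631 in PKBα+/+ mice). In limma's test of the difference itself, with the mouse as a block and the littermate pairing left out, no gene was called in either direction, among the 43 or among all genes (0%). At an unadjusted p under 0.05 none of the 43 was higher and 1 was lower (2.34% and 2.13% of all genes). The estimate was smaller in PKBα-/- mice for 34 of the 43, with a median difference of -0.09, beside 0.01 over all genes. The smallest p belonged to Gins2, at -0.38 ± 0.17 (SE, adjusted p = 0.968).

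The same difference was also taken within each littermate pair and tested against 0 over the 4 pairs with limma, a test added after seeing the data. None of the 43 genes was called higher or lower (0% and 0.0071% of all genes, the 1 gene being Nrip2, which is not among the 43). At an unadjusted p under 0.05 none was higher and 11 were lower in PKBα-/- mice (3.74% and 3.5% of all genes), against 1 lower with the pairing left out. The difference was below 0 in 4 of 4 pairs for 13 genes (7.62% of all genes), and above 0 in 4 of 4 for 1 gene, Rfc1 (8.08%). Among the 13, in examples chosen after their values were seen, Cdc6 differed by -0.20, -0.46, -0.25 and -0.18 on the log2 scale in pairs 1 to 4, Gins2 by -0.55, -0.16, -0.47 and -0.36, and Rfc4 by -0.27, -0.22, -0.16 and -0.14. The smallest adjusted p among the 43 was 0.631, that of Fen1, whose 4 pairs were at -0.10, -0.60, -0.03 and -0.74. These differences and the genotype comparisons within each subset use the same arrays.

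Within DN3 cells, none of the 43 genes was called between the genotypes by limma (0.0277% of all genes in each direction). At an unadjusted p under 0.05 there were 8 genes higher in PKBα-/- cells (2.41% of all genes) and none lower (2.6%), and the methods' paired t-test gave 3 higher and none lower at p up to 0.05, and none after adjustment or with 1.5-fold in at least 3 pairs. The estimate was positive for 39 of 43 genes, with a median of 0.10 on the log2 scale, beside -0.01 over all genes tested. The median was 0.06 without pair 4 and 0.07 when the probe sets of each gene were averaged. In 14 genes the PKBα-/- mouse was higher in 4 of 4 pairs (5.91% of all genes) and in none was it lower in 4 of 4 (6.83%). The mean log2 level of the 43 genes was 11.58, 11.50, 11.44 and 11.29 in PKBα-/- DN3 cells of pairs 1 to 4, against 11.52, 11.43, 11.34 and 11.09 in PKBα+/+ DN3 cells. The PKBα-/- mouse was the higher in each pair, by 0.055 in pair 1 to 0.20 in pair 4, while the mice of either genotype differed among themselves by more than the pairs did. The log2 gap between 3′ and 5′ actin was 2.65, 2.65, 2.50 and 3.11 in PKBα-/- DN3 cells, against 3.10, 2.93, 2.61 and 2.95 in PKBα+/+ DN3 cells, lower in the PKBα-/- array in 3 of 4 pairs. Its part in this was not tested.

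In DN3 cells the smallest p belonged to both primase subunits. Prim1 read 7513, 5138, 5075 and 5348 in PKBα-/- DN3 cells, against 6508, 3829, 4314 and 4113 in PKBα+/+ DN3 cells. The PKBα-/- mouse was higher in every pair, by 0.21, 0.42, 0.23 and 0.38 on the log2 scale, and the estimate was 0.31 ± 0.077 (SE, 95% interval 0.15 to 0.47, adjusted p = 0.378). Another Prim1 probe set of similar level read 5088, 4191, 4264 and 3419 in PKBα-/- DN3 cells, against 6456, 4613, 3541 and 2722 in PKBα+/+ DN3 cells. There the PKBα-/- mouse was lower in pairs 1 and 2 and higher in pairs 3 and 4. Prim2 read 2615, 2436, 2084 and 2886 in PKBα-/- DN3 cells, against 2089.8, 2325, 1627 and 2505 in PKBα+/+ DN3 cells. At this probe set Prim2 was higher in every pair, at 0.24 ± 0.093 (SE, adjusted p = 0.972). Another Prim2 probe set of similar level read 2473, 2001, 1835 and 2711 in PKBα-/- DN3 cells, against 1818, 1766, 1579 and 1910 in PKBα+/+ DN3 cells, higher in every pair too. The mean of all 3 Prim2 probe sets was at -0.04, but it includes a low probe set, at 3.05 to 62.1 in DN3 cells. In the other direction the smallest p were those of Orc5, at -0.19, and Pold1, at -0.05, with adjusted p of 0.972 and 0.985.

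**Figure D4:**
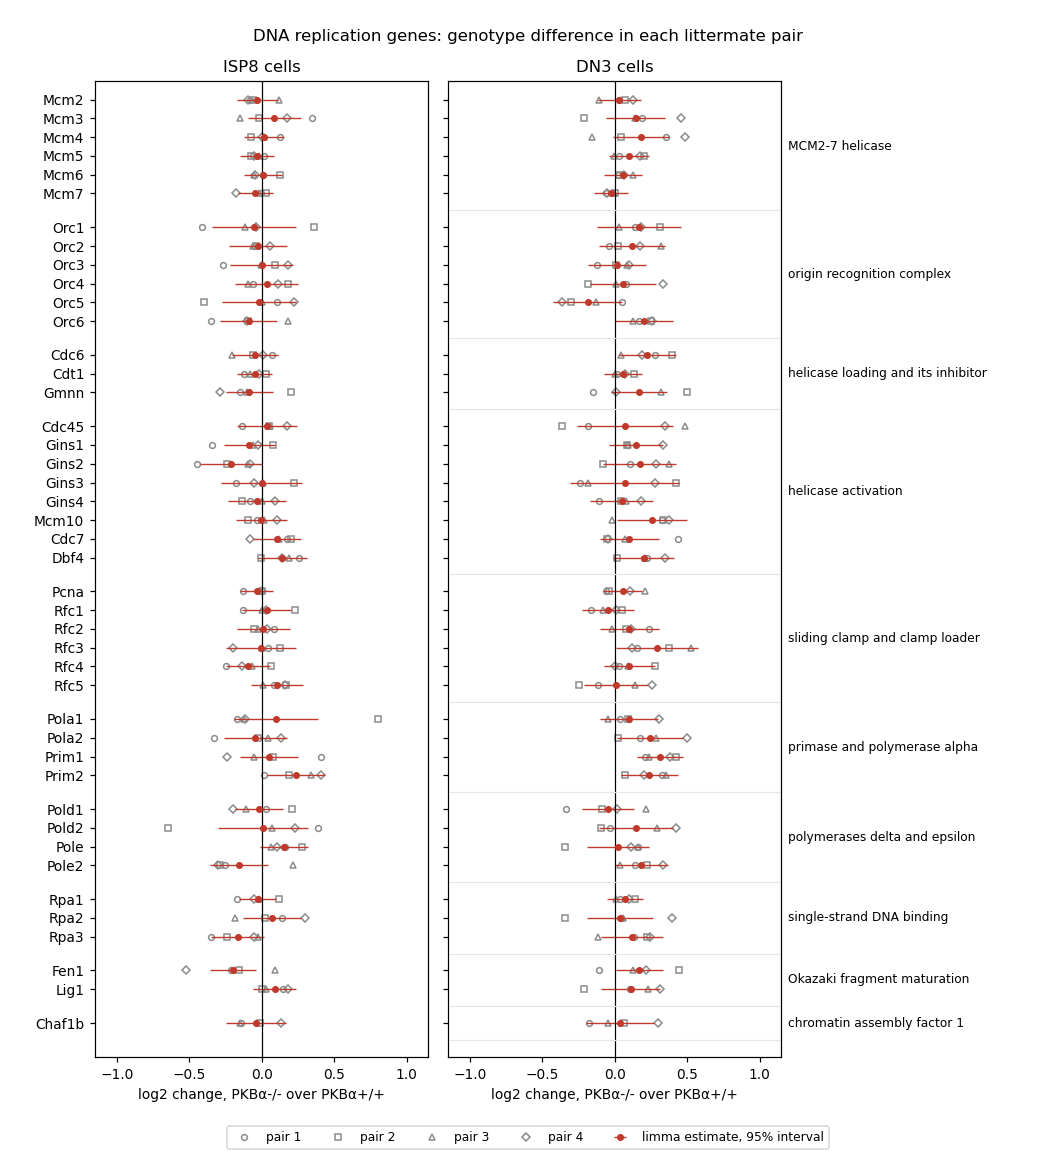
Log2 difference between PKBα-/- and PKBα+/+ cells for each of the 43 genes in ISP8 (left) and DN3 cells (right); grey symbols are the 4 littermate pairs, and red points and bars the limma estimates with 95% intervals. In DN3 cells 39 estimates lie right of 0 and in ISP8 cells 18, and none was called in either subset.

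Within ISP8 cells, none of the 43 genes was called either (0% of all genes higher and 0.0206% lower). At an unadjusted p under 0.05 there was 1 gene higher (3.41% of all genes) and 1 lower (3.08%), and the methods' paired t-test gave 1 higher and none lower at p up to 0.05. The estimate was positive for 18 of 43 genes, with a median of -0.02, beside 0.01 over all genes, and the median was 0.01 under quantile normalization. The PKBα-/- mouse was higher in 4 of 4 pairs in 4 genes (8.04% of all genes) and lower in 4 of 4 in 2 (7.62%). The mean log2 level was 12.15, 12.17, 12.19 and 12.23 in PKBα-/- ISP8 cells, against 12.20, 12.15, 12.20 and 12.23 in PKBα+/+ ISP8 cells. The largest difference within a pair was -0.05, in pair 1, and the 8 arrays lay closer together than those of DN3 cells.

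Prim2 had the smallest p among the genes higher in PKBα-/- ISP8 cells. It read 2827, 2814, 2737 and 3150.4 in PKBα-/- ISP8 cells, against 2793, 2473, 2161 and 2372 in PKBα+/+ ISP8 cells. Every pair was higher, by 0.02, 0.19, 0.34 and 0.41, and the estimate was 0.24 ± 0.093 (SE, adjusted p = 0.803). The other Prim2 probe set of similar level read 2453, 2003.5, 2266 and 2524 in PKBα-/- ISP8 cells, against 2677, 2531, 2116.5 and 2319 in PKBα+/+ ISP8 cells. There the PKBα-/- mouse was lower in pairs 1 and 2 and higher in pairs 3 and 4. Pole followed at 0.15 (adjusted p = 0.825), with 4 of 4 pairs higher. On the lower side Fen1 was at -0.20 (adjusted p = 0.799), with 3 of 4 pairs lower. Gins2 read 1768, 1759, 1924 and 1568 in PKBα-/- ISP8 cells, against 2406, 2072, 2054 and 1658 in PKBα+/+ ISP8 cells. All 4 pairs were lower, and the estimate was -0.21 ± 0.099 (SE, adjusted p = 0.817).

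When each mouse was represented by the mean of its 2 subsets, none of the 43 genes was called between the genotypes (0.0123% of all genes higher and 0.0369% lower). Unadjusted p under 0.05 were found for 3 genes higher (2.49% of all genes) and none lower (2.67%). Prim2 was 0.24 ± 0.07 higher in PKBα-/- mice (SE, 95% interval 0.09 to 0.39, adjusted p = 0.765) and Prim1 0.18 ± 0.061 (SE, adjusted p = 0.927), and the third was Dbf4 at 0.17 (adjusted p = 0.979). As given above, another Prim1 probe set in DN3 cells was lower in PKBα-/- mice in pairs 1 and 2 and higher in pairs 3 and 4. Likewise another Prim2 probe set in ISP8 cells did not give a higher PKBα-/- value in every pair. Orc5 (-0.10, adjusted p = 0.993) and Mcm7 (-0.04, adjusted p = 0.993) had the smallest p among those lower. A missing call does not show that the genotypes were alike.

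**Figure D5:**
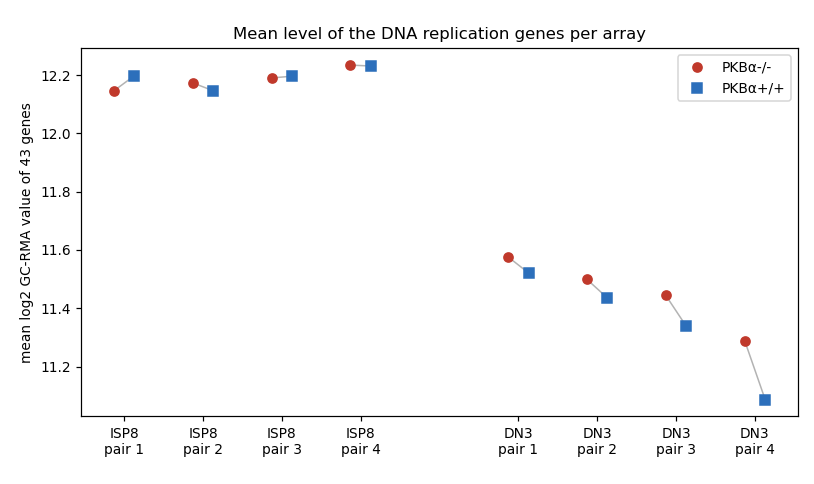
Mean log2 GC-RMA value of the 43 genes in each array, with the PKBα-/- (red circles) and PKBα+/+ (blue squares) littermates of a pair joined by a line. ISP8 arrays lie between 12.15 and 12.23 and DN3 arrays between 11.09 and 11.58, and the PKBα-/- littermate is the higher in each DN3 pair.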

How the data were processed

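RNA of sorted cells was amplified in 2 cycles and hybridised to Affymetrix mouse genome 430 2.0 arrays. The authors made the deposited intensities with GC-RMA in Refiner 3.1, which corrects background and normalizes between arrays, and the 45101 values per array were taken as log2 with no added constant. Probe sets had to exceed 20 in at least 1 array of a mouse or pair, in at least 3 of 4 of them; all 43 genes passed in every comparison. limma 3.58.1 under R 4.3.3 (trended moderation) was fitted with the mouse as a block between subsets, and the littermate pair between genotypes, adjusted by Benjamini-Hochberg. The labels name the pairs: littermates' deviations correlated at 0.337 to 0.4 in DN3 and at 0.0807 to 0.194 in ISP8 cells, other mice at -0.247 to 0.0708 and -0.183 to 0.0661. Symbols came from the platform annotation (34958 probe sets with 1 symbol, 932 with several, 9211 with none). Values in every array are given for the 4 largest rises, the highest mean of each role, and the 2 smallest p in each direction between genotypes, and up to 3 genes a direction are named from the lists of other replication genes and of E2F and pocket proteins. The members and lists were chosen with earlier results of these data known. The fits were tested on simulated data, over probe sets of all levels and without deviations shared by littermates. Of log2 changes of 0.5, the genotype fits found 0.7% in DN3 and 0.5% in ISP8 cells. Of changes of 1 they found 20.7% and 20.8%. The fit between subsets found 18.7% of changes of 0.5 and 53.6% of changes of 1. The alternatives were to drop the filter, to raise it to 100, to add 20 before taking logs, quantile normalization, median centring, no replicate block, robust moderation, the mean of all probe sets, the methods' paired t-test and leaving out each pair. The test of the difference within littermate pairs was added after seeing the data. Motifs were read in RefSeq windows (Python 3.11.15); the number of arrays limits the precision.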

Additional observations from a re-analysis of the deposited data

Results flagged for a closer look

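Among the 68 groups of 4 arrays formed by the 17 genes given in every array, 4 held an array far from the other 3, by the ratio of its gap to the group's range on the log2 scale (above Dixon's critical value). Chance gives about 1 such group in 20. Mcm7 was high in PKBα+/+ ISP8 cells of pair 4 (ratio 0.956), at 26910.3 beside 24464.9 to 24566.5. Gins1 was low in PKBα-/- ISP8 cells of pair 1 (0.869), at 4722 beside 5543 to 5678. Mcm10 was low in PKBα+/+ DN3 cells of pair 4 (0.855), at 667 beside 1151 to 1262. Prim1 was high in PKBα-/- DN3 cells of pair 1 (0.866), at 7513 beside 5075 to 5348. On the linear scale Mcm10 was at 0.813, below the critical value, and groups past it were also Fen1 in PKBα-/- (0.915) and PKBα+/+ (0.918) DN3 cells, both through pair 3 and at 0.8 and 0.801 on the log2 scale, Prim1 in PKBα-/- ISP8 cells (0.856) and Pole in PKBα-/- DN3 cells (0.837), both through pair 1.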

How the results depend on the processing

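Of the 43 genes, 37 to 43 were called higher in ISP8 than in DN3 cells over both genotypes under every alternative that kept all pairs, 36 to 40 in PKBα-/- mice and 36 to 40 in PKBα+/+ mice, and 38 to 39, 35 to 38 and 35 to 39 when a pair was left out. None was called lower, and none was called between genotypes or in the difference between genotypes, under any of these. Without the replicate block the counts were 39, 37 and 38, and Prim2 was the call lost over both genotypes (0.21). Prim2 was no longer called between subsets with quantile normalization (0.19), without the replicate block, or without pair 1, 2 or 3 (0.15 to 0.23), and Chaf1b with the mean of its probe sets (0.24). Orc5 was called with median centring (0.28). Genotype estimates changed sign for Mcm7 over both subsets with quantile normalization (0.0097) and the mean of all probe sets (0.042), and in DN3 cells for Prim2 (-0.043) and Pold1 (0.022) with the mean of all probe sets, and for Pold1 without pair 1 (0.047, in a range of -0.14 to 0.047 with a pair left out). The Prim2 mean includes a low probe set, at 3.05 to 62.1 in DN3 cells. The median genotype difference of the 43 genes changed sign in ISP8 cells under quantile normalization (0.0109, as deposited -0.0174), and in DN3 cells was 0.0618 without pair 4 and 0.0664 with the mean of all probe sets, against 0.10. The cause was not tested. With the littermate pair as the replicate block, the difference between genotypes called none of the 43 genes and 1 probe set lower. Over all probe sets, 6 were called higher and 7 lower between genotypes in DN3, 1 and 4 in ISP8 cells, and 3 and 11 in the mean of both. Without a pair these counts reached 24 and 21 in DN3 cells (pair 3), and up to 11 lower in ISP8 cells (pair 4), and without the block they were 0 and 1, 0 and 2, and 0 and 2. With the methods' paired t-test and 1.5-fold in at least 3 pairs, 176 probe sets were higher and 282 lower in DN3 cells. In ISP8 cells these counts were 233 and 288, and none was a probe set read for the 43 genes. The detection p-value that the paper also used was not applied, so these are not the counts of the paper's own selection.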
